A study of Yarrowia lipolytica with 3 samples.

Results

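Loss of MHY1 was examined in the oil-accumulating, dimorphic yeast Yarrowia lipolytica by setting the mhy1Δ library against the wild-type library, 2 of the 3 RNA-seq libraries in the data set. The 3 strains were an mhy1Δ mutant, a strain overexpressing MHY1 and the wild type, all with PO1a, a laboratory strain derived from a French natural isolate, as their source. Each strain was 1 culture of 50 ml, grown at 30 °C to an OD600 of 0.8 in the defined medium YNDC7 with added uracil, and no treatment was given. The sources used here do not say how MHY1 was removed or overexpressed, or whether each mutant was 1 clone. The genes compared were those at 1 RPKM (reads scaled to gene length and library size) or more in at least 1 of the 3 libraries, which held for 6035 of the 6448 genes listed. With 1 library per strain there is no replicate and no test, so each gene is described by how far apart the libraries lay, and bracketed 95% intervals cover counting error only. Differences in log2 are log2((deletion + 1)/(wild type + 1)) on RPKM, and folds are plain RPKM ratios. A gene was counted as higher or lower when the log2 difference reached 2-fold.

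MHY1 encodes a zinc-finger transcription factor related to the stress-response activators Msn2 and Msn4 of Saccharomyces cerevisiae, and it is known for driving the switch from round yeast cells to hyphae in Y. lipolytica. The same yeast is known for growing on fats and alkanes. It oxidises alkanes through cytochromes P450, alcohol and aldehyde dehydrogenases, breaks fatty acids down by β-oxidation in peroxisomes, and turns the resulting acetyl-CoA into sugar through the glyoxylate cycle and gluconeogenesis.

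MHY1 (YALI0B21582g) was listed at 0 RPKM in the deletion library, against 467 RPKM and 19064 reads in the wild-type library. It was at 1159 RPKM in the overexpression library. Set against a floor of 3 reads, which is 0.0587 RPKM at the depth of the deletion library, the deletion value was at least 7943-fold below wild type. With the identifier of MHY1 taken as recalled, the library matched its label. Around the gene, the identifier directly before it was at 120 RPKM in the deletion and 123 RPKM in wild type, and the one directly after it at 98.0 and 80.6 RPKM. The next identifier, 2 places after MHY1, was at 15.3 RPKM in the deletion library, against 46.4 RPKM in wild type and 94.0 RPKM in the overexpression library, so it was lower in the deletion and higher in the overexpression library.

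More genes were lower than higher without MHY1. In the deletion library 352 genes, 5.83% of those compared, passed 2-fold on the lower side, and 100 genes, 1.66%, on the higher side. With a pseudocount of 5 RPKM in place of 1, 211 genes were lower. Most genes differed little, with 5583 of the 6035 within 2-fold. Of the log2 differences, 25% were below −0.31 and 25% above 0.17, with a median of −0.03. The large differences were downward: 32 genes lay 8-fold or more below wild type and 3 as far above it, and at 16-fold the numbers were 17 and 0. The genes called lower summed to 13891 RPKM in the deletion library and 45044 RPKM in wild type. Those called higher summed to 30251 RPKM in the deletion and 10169 RPKM in wild type. The genes called higher were the more strongly expressed in their own high library, with a median of 109 RPKM in the deletion, against a median of 28.5 RPKM in wild type for the genes called lower. The whole counting interval was past 2-fold for 323 of the 352 lower and 92 of the 100 higher genes.

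**Figure D1:**
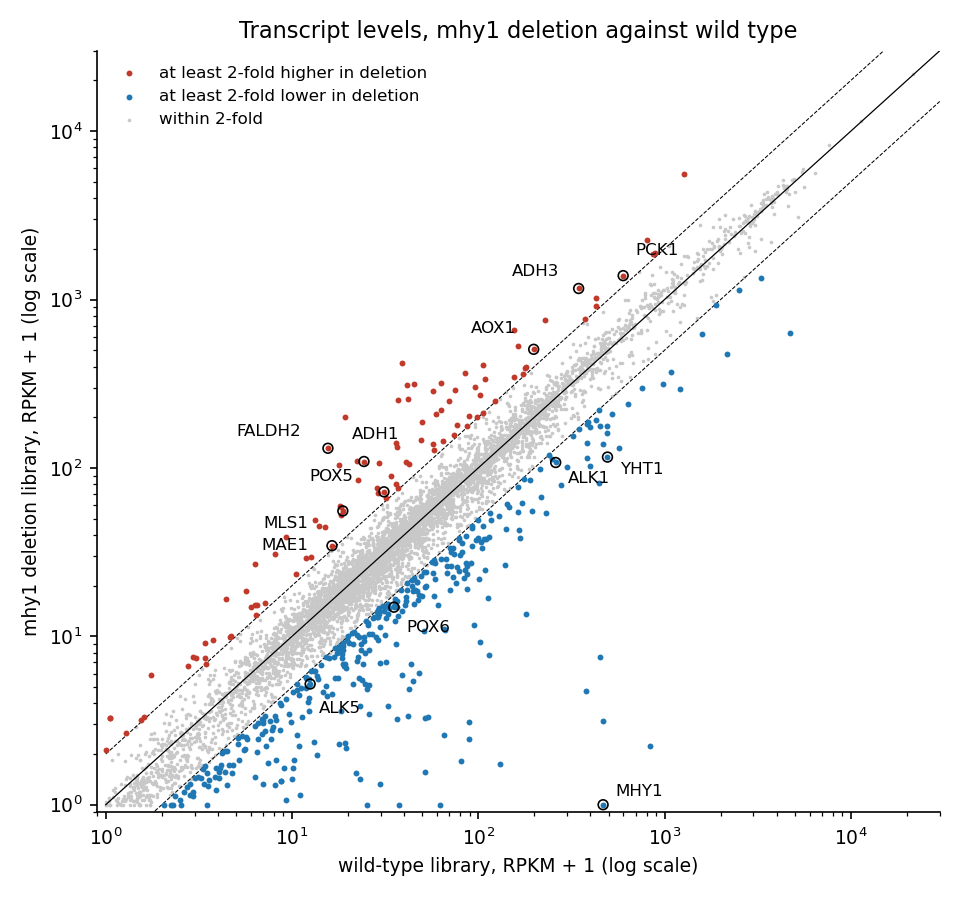
Each point is 1 of the 6035 genes compared, with its level in the deletion library on the vertical axis and in the wild-type library on the horizontal axis, both as RPKM + 1 on log scales. The solid line marks equal levels and the dashed lines 2-fold; the 352 blue points lie at or below the lower line, the 100 red points at or above the upper line, and the circled genes are the listed genes that passed 2-fold.

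Among genes at 10 RPKM or more in either library, the 12 lowest differences were MHY1 and 11 genes that were not among the 134 given a name here. These 11 lay between 0 and 6.58 RPKM in the deletion library, against 36.4 to 837 RPKM in wild type, and their log2 differences ran between −8.56 and −4.84. The lowest was YALI0C23452g, at 1.23 RPKM in the deletion, 1070 RPKM in the overexpression and 837 RPKM in the wild-type library, 683-fold lower in the deletion (590 to 794). It was near silent in the deletion library only, among the 3 libraries. In the overexpression library 9 of the 11 stood above their wild-type level and 2 below it. The median over all genes compared was also higher in that library, at 38.0 RPKM against 34.1 RPKM in wild type. The share of all genes above wild type there was not counted. Besides MHY1, 3 genes at 10 RPKM or more in wild type had no read in the deletion library; set against 3 reads, they were at least 146-fold to at least 359-fold lower, and all 3 had short recovered lengths of 276 to 303 bases.

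The most abundant transcript among the lower genes, chosen after its values were seen, was YALI0F21428g. It was at 628 RPKM in the deletion library, 11196 RPKM in the overexpression library and 4683 RPKM in wild type, 7.45-fold lower in the deletion (7.35 to 7.55). Its counterpart among the higher genes, YALI0D09889g, also chosen after its values were seen, was at 5561 RPKM in the deletion, 408 RPKM in the overexpression and 1269 RPKM in the wild-type library, 4.38-fold higher in the deletion (4.33 to 4.44). It lies 2 identifiers before AOX1, described below, while the gene between them was at 26.5 RPKM in the deletion and 24.9 RPKM in wild type.

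The 12 highest differences held the fatty aldehyde dehydrogenase gene FALDH2, the alcohol dehydrogenase gene ADH1 and 10 genes that were not among those given a name here. The 10 lay between 102 and 418 RPKM in the deletion library, against 16.8 to 62.2 RPKM in wild type. The highest, YALI0F01210g, was at 418 RPKM in the deletion, 22.1 RPKM in the overexpression and 38.1 RPKM in the wild-type library, 10.96-fold higher in the deletion (10.03 to 12.01). In the overexpression library, where the median over all genes compared was above wild type, 6 of the 10 were below and 4 above their wild-type level. The share of all genes on either side was not counted, so these numbers have no baseline.

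Gene names, and the identifier taken for MHY1, are those of published Y. lipolytica nomenclature as recalled, since no annotation of these identifiers was at hand. Of 30 names whose protein length was also recalled, 29 matched the recovered coding length. The other names were not checked by length. The 134 named genes fell into 18 lists by role. Apart from MHY1, 130 were among the genes compared, and 8 of them passed 2-fold on the higher side and 4 on the lower side, where 1.66% and 5.83% of all genes compared did. For related genes such as those of the P450 and oxidase families, reads could have been shared between members, since the sources used here give no counting settings.

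**Figure D2:**
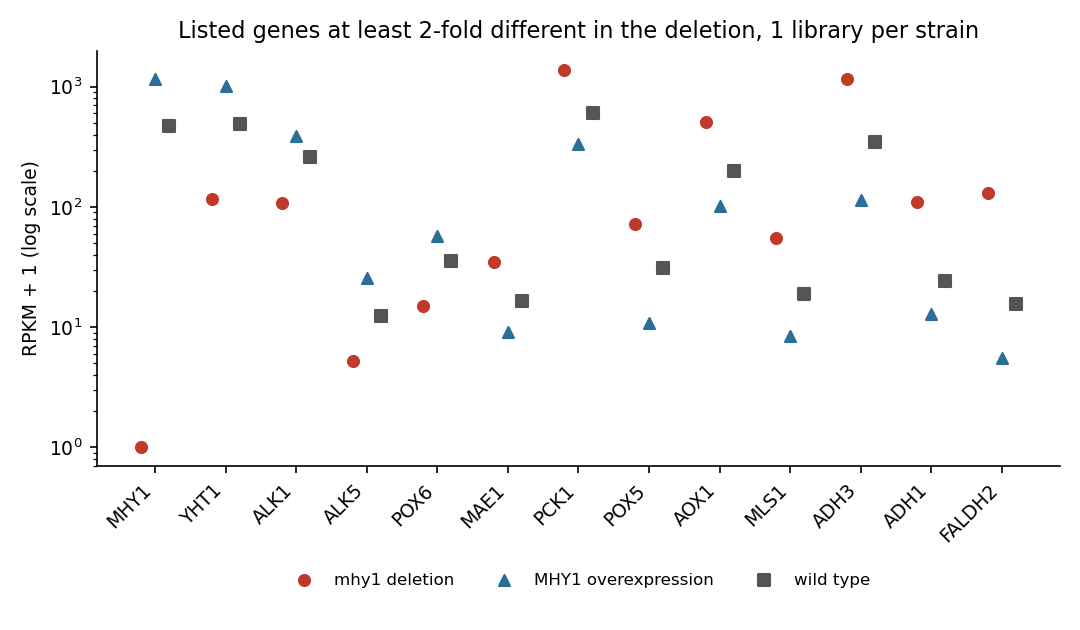
RPKM + 1 on a log scale for the 13 listed genes that passed 2-fold between the deletion and wild-type libraries, ordered by that difference. Each symbol is 1 library, with the deletion as circles, the overexpression as triangles and wild type as squares. The 8 genes on the right were highest in the deletion library and lowest in the overexpression library, while YHT1, ALK1, ALK5 and POX6 showed the opposite order.

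Among the listed genes of sugar uptake and glycolysis, the largest difference was that of 1 transporter gene. The hexose uptake list was added after the files were first read, and 2 of its 3 genes were compared. YHT1 (YALI0C06424g), a hexose transporter, was at 115 RPKM in the deletion, 1014 RPKM in the overexpression and 493 RPKM in the wild-type library, 4.29-fold lower in the deletion (4.19 to 4.38). On the log2 scale with the pseudocount it was the largest downward difference among the listed genes after MHY1, while by the plain ratio the weakly expressed ALK12 was 6.15-fold lower (3.27 to 12.6). YHT4, a further hexose transporter, was at 137 RPKM in the deletion and 193 RPKM in wild type, and YHT3 was under 1 RPKM in every library. The 12 genes listed under glycolysis were all within 2-fold, as were 5583 of the 6035 genes compared. The list includes PYC1, pyruvate carboxylase, which is not a step of glycolysis. The list median was a log2 difference of 0.15, and 10 of the 12, PYC1 among them, were above 0, where 46.2% of all genes compared were. The kinases that start glycolysis went opposite ways within that range. The hexokinase gene HXK1 was at 201 RPKM in the deletion and 126 RPKM in wild type, and the glucokinase gene GLK1 at 200 and 260 RPKM. Phosphofructokinase (PFK1) was at 435 RPKM in the deletion and 343 RPKM in wild type. Pyruvate kinase (PYK1), the last step of glycolysis, was at 1588 and 1693 RPKM.

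Of the 5 genes that make sugar from acetyl-CoA, by the glyoxylate cycle and gluconeogenesis, 2 passed 2-fold on the higher side, where 1.66% of all genes compared did, and 3 were within 2-fold. All 5 had log2 differences above 0, with a median of 1.00, against −0.03 over all genes. MLS1 (YALI0D19140g), a malate synthase of the glyoxylate cycle, was at 54.5 RPKM in the deletion, 7.41 RPKM in the overexpression and 17.7 RPKM in the wild-type library, 3.08-fold higher in the deletion (2.90 to 3.27). PCK1 (YALI0C16995g), phosphoenolpyruvate carboxykinase, the entry to gluconeogenesis, was at 1385, 335 and 598.2 RPKM in the same libraries, 2.32-fold higher in the deletion (2.29 to 2.34). ICL1, isocitrate lyase, sat on the line, with 1464 RPKM in the deletion and 732 RPKM in wild type; its log2 difference was under 1 as deposited and passed 1 under both other scalings. FBP1, fructose-1,6-bisphosphatase, was at 684 RPKM in the deletion and 561 RPKM in wild type, 1.22-fold higher, and the further malate synthase gene MLS2 was at 328 and 248 RPKM, so these stayed well within 2-fold.

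The 13 genes listed under the citrate cycle were all above 0, where 46.2% of all genes compared were. All 13 were within 2-fold, as were 5583 of the 6035 genes compared. The log2 differences of the 13 were 0.16 to 0.63, with a median of 0.29. Malate dehydrogenases led them, with MDH2 at 3013 RPKM in the deletion and 1949 RPKM in wild type and MDH1 at 3185 and 2102 RPKM. The citrate synthase genes followed, with CIT1 1.47-fold higher in the deletion and CIT2 1.44-fold. The succinate dehydrogenase gene SDH1 differed least, at 723 RPKM in the deletion and 647 RPKM in wild type. The 6 genes of the pentose phosphate pathway, which supplies NADPH, were likewise above 0 and within 2-fold, with a median of 0.31. Transketolase (TKL1) was at 1798 RPKM in the deletion and 1341 RPKM in wild type, 6-phosphogluconate dehydrogenase (GND1) at 3629 and 2904 RPKM, and RPE1, the ribulose-phosphate epimerase, at 314 and 309 RPKM. In these lists the abundant enzymes were thus slightly higher in the deletion, and the most strongly expressed decile of all genes also had a median above 0, at 0.08 (0.07 to 0.10, an interval over genes).

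Of the 2 listed genes for branches of the respiratory chain that bypass proton pumping, 1 was called higher, against 1.66% of all genes. AOX1 (YALI0D09933g), the alternative oxidase, was at 505 RPKM in the deletion, 101 RPKM in the overexpression and 197 RPKM in the wild-type library, 2.56-fold higher in the deletion (2.50 to 2.62). NDH2, the alternative NADH dehydrogenase, was at 611 RPKM in the deletion and 465 RPKM in wild type, within 2-fold.

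**Figure D3:**
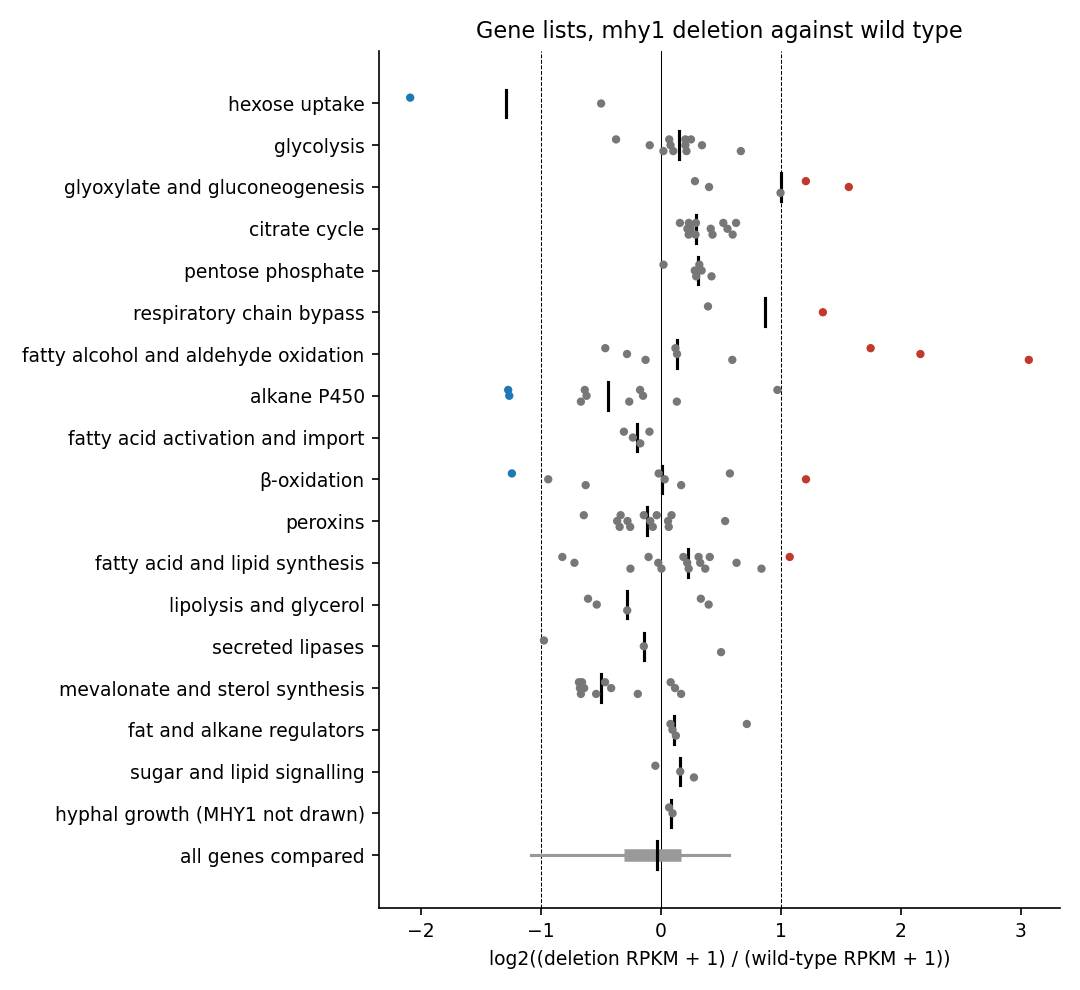
Log2 differences between the deletion and wild-type libraries for the listed genes compared, 1 point per gene, with the list median as a black bar and MHY1 left out; red and blue points passed 2-fold on the higher and lower side, and dashed lines mark 2-fold. The bottom row gives all 6035 genes compared, with the median of −0.03 as a bar, the middle 50% as a thick line and the 5th to 95th percentile as a thin line.

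Oxidation of alcohols and aldehydes held the largest upward differences among the listed genes. Of its 9 genes, 3 were at least 2-fold higher, against 1.66% of all genes, and none at least 2-fold lower, against 5.83%. The list median was 0.14. FALDH2 (YALI0E00264g), 1 of 4 fatty aldehyde dehydrogenases, was at 130 RPKM in the deletion, 4.58 RPKM in the overexpression and 14.6 RPKM in the wild-type library, 8.90-fold higher in the deletion (8.36 to 9.48). The other FALDH genes did not share this: FALDH4 was at 164 RPKM in the deletion and 179 RPKM in wild type, FALDH3 at 6.67 and 8.32 RPKM, and FALDH1 at 0.524 and 1.10 RPKM. ADH1 (YALI0D25630g), an alcohol dehydrogenase, was at 108 RPKM in the deletion, 11.8 RPKM in the overexpression and 23.3 RPKM in the wild-type library, 4.63-fold higher in the deletion (4.35 to 4.94). ADH3 (YALI0A16379g) was at 1161, 114 and 345 RPKM in the same libraries, 3.37-fold higher in the deletion (3.29 to 3.45). ADH2 was 1.51-fold higher in the deletion, at 276 RPKM against 182 RPKM in wild type. The long-chain fatty alcohol oxidase gene FAO1 was at 342 RPKM in the deletion and 311 RPKM in wild type, and FADH, a glutathione-dependent dehydrogenase, at 219 and 201 RPKM. Past 2-fold were 1 of the 4 FALDH genes and 2 of the 3 ADH genes.

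The cytochrome P450 genes ALK1 to ALK12 lay mostly on the other side. Of the 12 genes 10 were compared, 2 were at least 2-fold lower, against 5.83% of all genes, and none at least 2-fold higher, against 1.66%. The median was −0.44 and 8 lay below 0, where 53.8% of all genes did. The 8 include ALK7, ALK9 and ALK12, which were under 1 RPKM in both the deletion and wild-type libraries. With the filter at 10 RPKM, which leaves these and ALK11 out, the list median was −0.63. ALK1 (YALI0E25982g), known for hydroxylation of alkanes, was at 107 RPKM in the deletion, 388 RPKM in the overexpression and 259 RPKM in the wild-type library, 2.43-fold lower in the deletion (2.37 to 2.49). ALK5 (YALI0B13838g) was at 4.21, 24.7 and 11.5 RPKM, 2.73-fold lower in the deletion (2.43 to 3.09), and was under 2-fold on the log2 scale with a pseudocount of 5 RPKM. ALK3 was at 80.9 RPKM in the deletion and 126 RPKM in wild type. ALK2 went against these, at 37.9 RPKM in the deletion, 6.05 RPKM in the overexpression and 18.8 RPKM in the wild-type library; its log2 difference of 0.97 passed 1 under the other scalings. ALK7, ALK9, ALK11 and ALK12 were under 1 RPKM in both the deletion and wild-type libraries and were compared only through their overexpression values, and ALK8 and ALK10 were under 1 RPKM in all 3.

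Fatty acid breakdown showed no common direction. Of the 8 β-oxidation genes, 1 was at least 2-fold higher, against 1.66% of all genes, and 1 at least 2-fold lower, against 5.83%. The other 6 were within 2-fold, and the list median was 0.01. The acyl-CoA oxidase genes, which encode the first step, diverged. POX5 (YALI0C23859g) was at 71.1 RPKM in the deletion, 9.75 RPKM in the overexpression and 30.2 RPKM in the wild-type library, 2.36-fold higher in the deletion (2.22 to 2.50). POX6 (YALI0E06567g) was at 13.9, 56.8 and 34.2 RPKM, 2.46-fold lower in the deletion (2.27 to 2.68). POX4 was close to the line on the lower side, with 17.8 RPKM in the deletion and 35.0 RPKM in wild type. POX2 and POX3, the more abundant oxidase genes, differed little: POX2 was at 88.7 RPKM in the deletion and 78.8 RPKM in wild type, and POX3, whose log2 difference turned from below to above 0 under the other scalings, at 125 and 126 RPKM. Later steps were level or slightly higher, with the multifunctional enzyme gene MFE1 at 582 RPKM in the deletion and 568 RPKM in wild type and the thiolase gene POT1 at 303 and 203 RPKM.

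Supply to the peroxisome and its assembly differed by less. The 4 genes for fatty acid activation and import (FAA1, PXA1, PXA2 and ANT1) were all below 0, where 53.8% of all genes were. All lay within 2-fold, as did 5583 of the 6035 genes compared. The list median was −0.20, and FAA1, an acyl-CoA synthetase, was at 741 RPKM in the deletion and 834 RPKM in wild type. The 14 peroxins, which build peroxisomes, were all within 2-fold, with a median of −0.11, 10 below 0 and 4 above, PEX10 turning to above 0 under upper-quartile scaling. PEX19, a receptor for peroxisomal membrane proteins, was lowest, at 72.1 RPKM in the deletion and 113 RPKM in wild type. PEX13, part of the import pore, was highest, at 36.0 and 24.5 RPKM.

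Fatty acid and lipid synthesis was mostly within 2-fold, as were most of all genes compared (5583 of 6035). Of its 16 genes, 1 was at least 2-fold higher, against 1.66% of all genes, and none at least 2-fold lower, against 5.83%. The median was 0.23 and 11 lay above 0, where 46.2% of all genes did, DGA2 turning to above 0 under the other scalings. MAE1 (YALI0E18634g), the malic enzyme, was at 33.5 RPKM in the deletion, 8.10 RPKM in the overexpression and 15.4 RPKM in the wild-type library, 2.18-fold higher in the deletion (2.05 to 2.32), and was under 2-fold on the log2 scale with a pseudocount of 5 RPKM. The largest downward difference in the list was that of ELO2, a fatty acid elongase, at 328 RPKM in the deletion and 580 RPKM in wild type, 1.77-fold lower. The ATP citrate lyase genes ACL1 and ACL2, which supply acetyl-CoA, were also below 0, at 1527 and 1534 RPKM in the deletion and at 1820 and 1647 RPKM in wild type. The desaturase genes OLE1 and FAD2 were 1.26-fold and 1.29-fold higher in the deletion. SCT1, the acyltransferase that starts glycerolipid synthesis, was at 195 RPKM in the deletion and 108 RPKM in wild type, and ARE1, the sterol ester synthase, at 25.6 and 16.2 RPKM. The diacylglycerol acyltransferase genes were not alike, with DGA1 at 45.6 RPKM in the deletion and 75.8 RPKM in wild type and DGA2 at 42.8 and 43.5 RPKM. Among the 5 genes of lipolysis and glycerol metabolism, all within 2-fold, the lipase genes were lower, with TGL3 at 18.3 RPKM in the deletion and 28.4 RPKM in wild type and TGL4 at 18.2 and 26.8 RPKM. Of the secreted lipase genes, LIP8 was 1.97-fold lower in the deletion (1.95 to 1.98), just within the line on the log2 scale, LIP2 was 1.42-fold higher (1.40 to 1.43), and LIP7 was under 1 RPKM in the deletion and wild-type libraries.

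The listed genes of the mevalonate and sterol pathway, which leads to ergosterol, stood mostly lower without MHY1, though no member reached 2-fold. This list was added after the files were first read, and it holds no step later than ERG11. Of its 12 genes, 9 had log2 differences below 0, where 53.8% of all genes compared did, and the median was −0.50. HMG-CoA synthase (ERG13) was at 210 RPKM in the deletion, 302 RPKM in the overexpression and 337 RPKM in the wild-type library, 1.61-fold lower in the deletion (1.58 to 1.64). The farnesyl diphosphate synthase gene ERG20 was at 231, 348 and 367 RPKM, 1.59-fold lower in the deletion (1.56 to 1.63). Squalene synthase (ERG9), squalene epoxidase (ERG1) and lanosterol demethylase (ERG11), which act in this order though not all as adjacent steps, were 1.56-fold, 1.59-fold and 1.60-fold lower in the deletion. HMG1, the HMG-CoA reductase, was at 81.0 RPKM in the deletion and 112 RPKM in wild type. The 3 genes above 0 were ERG10, the thiolase at the head of the pathway, IDI1, the isopentenyl diphosphate isomerase, and GGS1, which branches off to geranylgeranyl diphosphate; they were 1.06-fold, 1.09-fold and 1.13-fold higher. In the overexpression library, set against the same wild-type library, 5 of the 12 were below their wild-type level and 7 above it. The median over all genes compared was above wild type there too, and the share of all genes on either side was not counted.

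**Figure D4:**
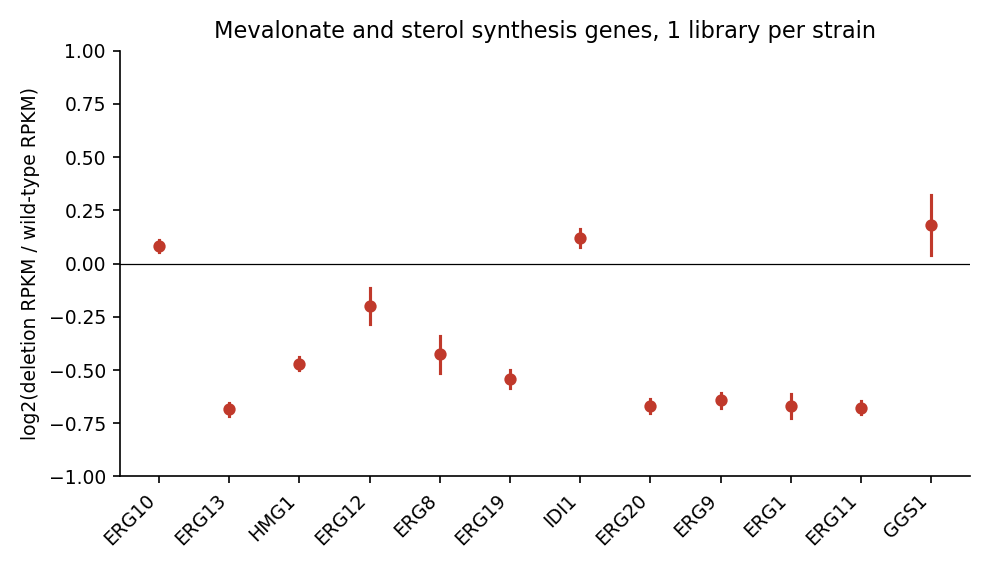
Log2 of the plain RPKM ratio of the deletion to the wild-type library for the 12 mevalonate and sterol synthesis genes in pathway order, with the branch gene GGS1 last. Bars are 95% intervals for counting error only, with 1 library per strain; 9 genes lie below 0 and 3 above.

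The 4 listed regulators of fat and alkane use were within 2-fold, as were 5583 of the 6035 genes compared. The median log2 difference of the 4 was 0.11. POR1, an activator of fatty acid use, was at 81.5 RPKM in the deletion and 49.1 RPKM in wild type, 1.66-fold higher (1.61 to 1.71). YAS1 and YAS2, which activate ALK1 on alkanes, were at 5.07 and 31.6 RPKM in the deletion and at 4.56 and 29.8 RPKM in wild type, and their repressor YAS3 was at 51.6 and 48.2 RPKM. The glucose repressor gene MIG1 was at 37.4 RPKM in the deletion and 33.3 RPKM in wild type, the kinase gene SNF1 at 75.2 and 77.6 RPKM, and MGA2, a regulator of desaturation, at 202 and 167 RPKM. Of the other regulators of hyphal growth, the homeobox gene HOY1 was 1.05-fold higher in the deletion (0.881 to 1.26) and the pH-response gene RIM101 1.07-fold (1.05 to 1.09).

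Position along the chromosomes was not used to form the comparison. Of the 352 lower genes, 65 (18.5%) had a direct neighbour in identifier order that was also lower, in 28 pairs and 3 runs of 3, and no run was longer. This number depended on the pseudocount, with 15 such genes among the 211 lower genes at 5 RPKM and 130 at 0.1 RPKM. Of all genes compared 5.83% were lower, but a neighbour on either side counted, so 5.83% is no baseline for the 18.5%. The share to be had without clustering was not worked out, so whether lower genes lay together more often than that was not tested. Of the 100 higher genes, 6 lay in 3 pairs. The runs of 3 lay on chromosomes B (2 runs) and F (1 run). Chromosome C had the highest share of lower genes, 67 of 858 or 7.81%, and chromosome F the lowest, 66 of 1268 or 5.21%, against 5.83% over all. The first and last 20 identifiers of the 6 chromosomes together held 8 higher genes among 222 compared, or 3.604%, against 1.66% over all, and 13 lower genes, or 5.86%, close to the 5.83% over all.

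Lower genes made up a larger share of the weakly expressed genes. In the lowest decile of mean RPKM, 9.27% of 604 genes were called lower and 1.32% called higher in the deletion library. In the ninth decile, between 127 and 271 RPKM, the shares were 3.32% and 3.81%, and in the tenth, the most strongly expressed, 3.97% and 2.48%. The ninth was the only decile with more higher than lower genes. The median log2 difference was −0.25 (−0.30 to −0.22, an interval over genes) in the lowest decile; it was −0.087 with a pseudocount of 5 RPKM, −0.51 with 0.1 RPKM and −0.11 without the filter. Among all genes compared, 160 had reached 1 RPKM in the overexpression library alone. The recovered lengths hardly differed, with medians of 1178 bases for the lower, 1025 bases for the higher and 1158 bases for all genes compared.

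**Figure D5:**
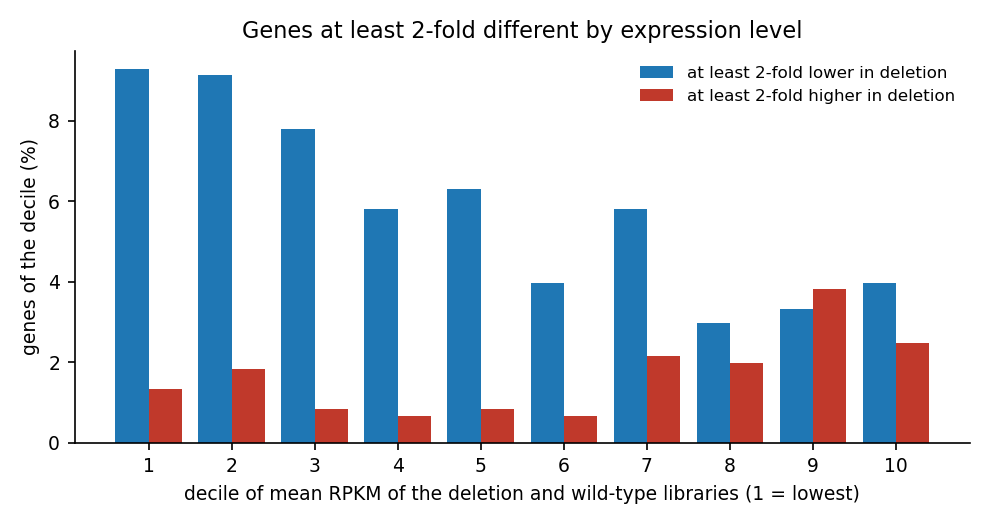
Share of genes at least 2-fold lower (blue) and higher (red) in the deletion library in each decile of the mean RPKM of the deletion and wild-type libraries, 603 or 604 genes each. The blue bars are down to between 2.98% and 3.97% in the 3 highest deciles, while the red bars reach 3.81% in the ninth.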

How the data were processed

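Total RNA from 3 Y. lipolytica cultures, 1 per strain, was made into Illumina TruSeq libraries from 1 µg each, per the labels' protocols. The deposited values are RPKM per gene, per the file headers. The submitters' processing notes name TopHat2 2.1.1 and Cufflinks 2.2.1 without a role and list a mouse build, which cannot be the source of these identifiers; for the yeast build, annotation, strand use and counting: not given in the sources used here.

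Low RPKM values lie on whole-read steps. From these the totals (59527000 reads for the deletion, 75306802 for overexpression, 47622181 for wild type), coding lengths and reads were recovered with Python 3.11.15 and numpy 2.4.6. Listed genes held 95.8% to 96.0% of the totals, and 99.99% of values above 0 came within 0.01 of a whole read. Some lengths are a fraction of the true one, which widens intervals. The recovery and ratios were tested on simulated data. Intervals are exact conditional binomial (95%, scipy 1.17.1), covering counting error only; 0 reads were set against a floor of 3 reads.

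Ratios used a pseudocount of 1 RPKM. Genes named are MHY1, the 12 lowest and 12 highest differences at 10 RPKM or more, listed genes and runs of neighbours; at most 2 identifiers without a name are printed per direction. No identifier matched the reference table of RefSeq genes (0 matched), so names rest on recalled nomenclature. Of 30 recalled protein lengths 29 matched, 26 of them without a multiple of the recovered length, where 0.315% of identifiers would. The members and lists were chosen with earlier results of these data known, and 3 of the 18 lists (sterols, hexose uptake, sugar and lipid signalling) were added after the files were first read. Alternatives were pseudocounts of 0.1 and 5 RPKM, no filter and 10 RPKM, median of ratios and upper-quartile scaling, 1.5-fold and 4-fold, and centring, the last added after seeing the data. A promoter motif was not analysed here, since no sequence was at hand.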

Additional observations from a re-analysis of the deposited data

How the results depend on the processing

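No paired analysis was possible because each strain had 1 library, which also leaves no replicate to leave out. A threshold of 1.5-fold gave 281 higher and 785 lower genes, and 4-fold gave 17 and 79. A pseudocount of 5 RPKM left 211 lower genes; 15 lower genes had a lower neighbour, 4.90% of chromosome C was lower and the lowest-decile median was −0.087. With 0.1 RPKM the last 3 values were 130, 10.96% and −0.51; a larger pseudocount shrinks every ratio by construction. Without a filter the lowest-decile median was −0.11. Centring, median of ratios and upper-quartile scaling gave 0.11, 0.11 and 0.15 for the highest-decile median and 0.10, 0.10 and 0.13 for the hyphal growth list. Of 126 list medians over the alternatives, 123 stayed within the 95% interval of the median over their list's genes, which for short lists is their range. Of the 13 listed genes called, 11 stayed at least 2-fold with a pseudocount of 5 RPKM (ALK5 and MAE1 did not) and 13 under each of the 6 other settings; none changed sign. The scalings moved the median of all genes from −0.03 to −0.0016 (median of ratios) and 0.03 (upper quartile). Few reads limit genes such as ALK12, with 12 reads in the deletion library.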

Other observations

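A group of higher genes shared 1 recovered length. Of the 84 genes at 10 RPKM or more called higher in the deletion library (1.71% of the 4923 genes at that level), 4 had a recovered coding length of 930 bases, a length held by 13 of the 6035 genes compared (0.215%), and 2 of the lower genes had it as well. The 4 lie on 4 chromosomes and were between 254 and 531 RPKM in the deletion library, between 31.7 and 120 RPKM in the overexpression library and between 36.2 and 161 RPKM in wild type, with log2 differences of 1.71 to 2.90. Their lengths were noticed after the values were seen, the files pair them with no name, and whether they are related, or share reads, was not tested.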
